A study of Mus musculus with 65 samples.

Results

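The step from 6 to 16 months of age was examined in the spinal cord of mice fed ad libitum (AL). Its members were chosen from the labels, as all AL mice of 476 to 499 days (16 months, 10 arrays) and all AL mice of 169 to 194 days (6 months, 10 arrays), so that 20 of the 65 arrays of the series entered the comparison. All were C57BL/6 mice on regular feed, without any transgene or drug, and each age held 5 males and 5 females with 1 array per mouse. The series also holds juvenile and 24 month AL mice and mice on caloric restriction (CR, a reduced food ration), and measured total RNA of the whole spinal cord on a nylon filter of 8448 spotted cDNA clones (features). In such bulk RNA, fewer cells of a type and less RNA per cell cannot be told apart.

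The spinal cord is rich in myelinated fibres, and ageing of the nervous system is known for activation of its glia. Microglia, its resident macrophages, take up debris and digest it in lysosomes with proteases such as cathepsin D, and they are the source of complement C1q in the nervous system. Secreted, membrane and lysosomal proteins are first folded and trimmed as glycoproteins in the endoplasmic reticulum before membrane traffic, steered by Rab GTPases, carries them to their destination.

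Values are Z scores, in which 0 is the mean and 1 the SD of all features of the same array, so every difference is relative to the other features. The defining markers of oligodendrocytes, astrocytes, Schwann cells and choroid plexus were not among the features with a single gene symbol, and the label of the tissue could be checked only on few genes. Neurofilament light chain (Nefl) lay at percentiles 87.1 and 82.2 of all features at its 2 spots, which is a high level. Of the blood genes, Alas2 lay at percentile 11.2, while the alpha-globin features of Hba-a1 and Hba-a2 lay between percentiles 73.3 and 95, and Mylpf of fast muscle at 64.5. The meningeal markers lay at percentiles 84.7 and 34.7 (Col1a2), 67.3 (Col1a1) and 24.7 and 57.2 (Dcn). The microglial C1qa, C1qb and C1qc lay at 22.5, 67.3 and 64.7. None of these markers passed the test between 6 and 16 months.

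The arrays of the comparison came in 2 runs, which the labels do not name and which were taken here from the array numbers in the titles (22 to 43 and 66 to 67 as the second run). The first run held 8 of the mice of 6 months and 6 of those of 16 months, and the second run 2 and 4. Array 33, AL male replicate 3 of 6 months, stood apart from the other 19, with a first principal component score of -62.2 against -6.15 to 8.96. Its median correlation with the other arrays was 0.716, against 0.952 to 0.98 for the rest. Without it, the first component held 38.5% of the variance and scores lay between -7.85 and -3 for first-run arrays and between 13 and 18.1 for second-run arrays. The main results are therefore given in the fit of all arrays and in a second fit. The second fit (the run-adjusted difference) had a term for the run and left out arrays 31 to 33. Of these, 31 and 32 are CR mice, and the values above concern array 33 only. With no term for the run, 3 features passed without array 33 and 6 without arrays 31 to 33. Genes named from lists are given by their run-adjusted difference, with that of all arrays beside it where the sign differed.

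**Figure D1:**
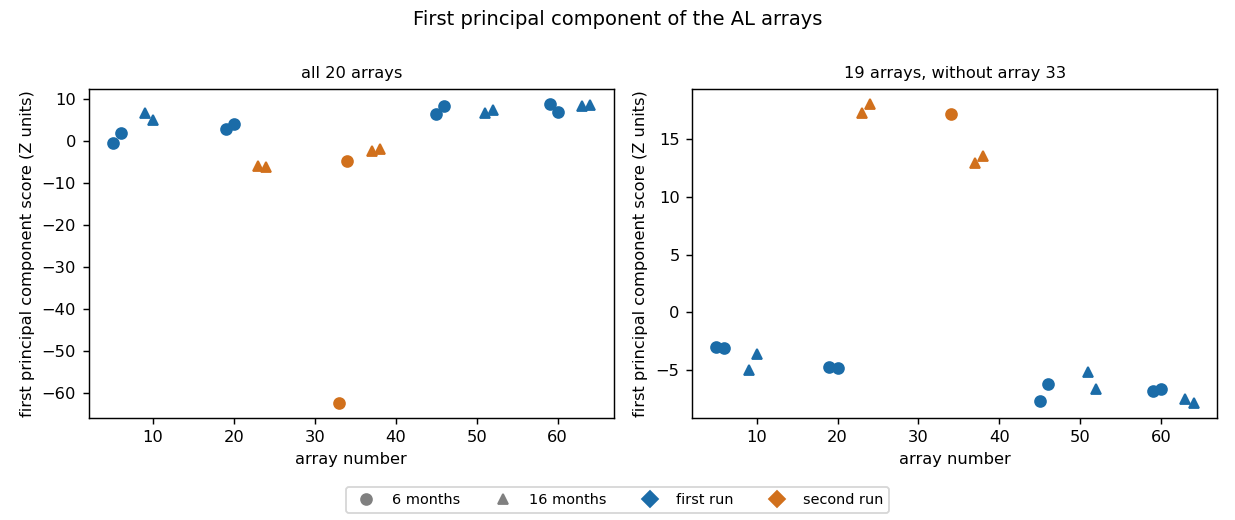
First principal component score in Z units (y axis) against array number (x axis) for all 20 AL arrays and for the 19 arrays without array 33, with symbols for age and colours for the run. Array 33 lies at -62.2 on the left, and on the right the second run (13 to 18.1) is separated from the first (-7.85 to -3) at both ages.

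Ganab and Tbc1d8 were higher at 16 than at 6 months, and no feature was lower past the threshold. The spread behind this test came from all arrays of the series, including juvenile, CR and 24 month mice. With only the 20 AL arrays of 6 and 16 months in the fit, no feature passed. The differences of both genes were the same there, each with a limma adjusted p of 0.649. Ganab, glucosidase II alpha, which removes glucose from N-glycans in the endoplasmic reticulum, ran from -0.71 over a median of -0.345 to -0.3 in the 10 mice of 6 months. In the 10 mice of 16 months it ran from -0.22 over -0.105 to 0.22. The 2 ages did not overlap. The means were -0.382 ± 0.119 and -0.081 ± 0.136 (SD, n = 10 each), a difference of 0.301 (SE 0.0506, limma adjusted p = 0.00169).

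Tbc1d8, a protein with the TBC domain of Rab GTPase activators, ran from -0.58 over -0.19 to -0.15 at 6 months and from -0.08 over -0.01 to 0.28 at 16 months. Again the lowest mouse of 16 months lay above the highest of 6 months. The means were -0.24 ± 0.131 and 0.027 ± 0.109 (SD, n = 10 each), a difference of 0.267 (SE 0.0478, limma adjusted p = 0.00328). These 2 features were 0.0237% of all features, while 452 (5.35%) were higher and 668 (7.91%) lower at an unadjusted p under 0.05. Groups of 10 and 10 that did not overlap were found at 3 features (0.0355%), namely these and a feature of Ctsd, all higher at 16 months.

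In the second fit, 7 features of 6 genes rose (0.0829% of all features), among them Ganab (0.279, SE 0.0421, limma adjusted p = 0.00018) and Tbc1d8 (0.237, SE 0.0444, limma adjusted p = 0.0031). None fell, and 322 features (3.81%) were higher and 242 (2.86%) lower at an unadjusted p under 0.05, which is 6.68% in all.

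Ctsd, cathepsin D, the main aspartic protease of lysosomes, rose at both of its features. At feature 12531 the mice of 6 months ran from -1.16 over 0.125 to 0.23 and those of 16 months from 0.29 over 0.38 to 0.76. At feature 12575 they ran from -1.17 over 0.055 to 0.16 and from 0.1 over 0.36 to 0.8. The ages did not overlap at the former and did at the latter, where 1 mouse of 16 months lay within the younger range, and array 33 was the lowest mouse at both. The run-adjusted differences were 0.265 (SE 0.0466) and 0.312 (SE 0.0556), each with a limma adjusted p of 0.00174, against 0.396 and 0.417 (limma adjusted p = 0.0907 and 0.084) with all arrays.

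Hadha, the alpha subunit of the mitochondrial trifunctional protein of fatty acid oxidation, ran from -1.95 over -0.375 to -0.2 at 6 months and from -0.22 over -0.115 to 0.2 at 16 months. The ages overlapped only slightly, and the value of -1.95 was that of array 33. The difference was 0.457 (limma adjusted p = 0.0827) with all arrays and 0.289 (SE 0.0472, limma adjusted p = 0.000556) when run-adjusted.

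Numa1, which organizes microtubules at the poles of the mitotic spindle, rose at 1 of its 3 features. Feature 12487 ran from -1.21 over -0.81 to -0.68 at 6 months and from -0.73 over -0.53 to -0.29 at 16 months, with a difference of 0.328 (limma adjusted p = 0.0827) with all arrays and 0.296 (SE 0.0535, limma adjusted p = 0.0018) when run-adjusted. Features 11935 and 15748 had run-adjusted differences of 0.0809 and -0.0202 (limma adjusted p = 0.745 and 0.988), so the features named for this gene did not move alike.

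Asxl1, a polycomb-associated chromatin regulator, ran from -0.63 over -0.395 to -0.21 at 6 months and from -0.32 over -0.26 to -0.07 at 16 months, and the ages overlapped. Its difference was 0.184 (limma adjusted p = 0.084) with all arrays and 0.171 (SE 0.0372, limma adjusted p = 0.0344) when run-adjusted. C1qa, a chain of complement C1q, ran from -1.33 over -0.8 to -0.62 and from -0.83 over -0.55 to -0.25. Its differences of 0.265 (limma adjusted p = 0.084) with all arrays and 0.217 (SE 0.0536, limma adjusted p = 0.159) when run-adjusted did not pass. The features of the partner chains C1qb and C1qc had 0.063 and 0.016 with all arrays and 0.00199 and -0.0226 when run-adjusted.

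**Figure D2:**
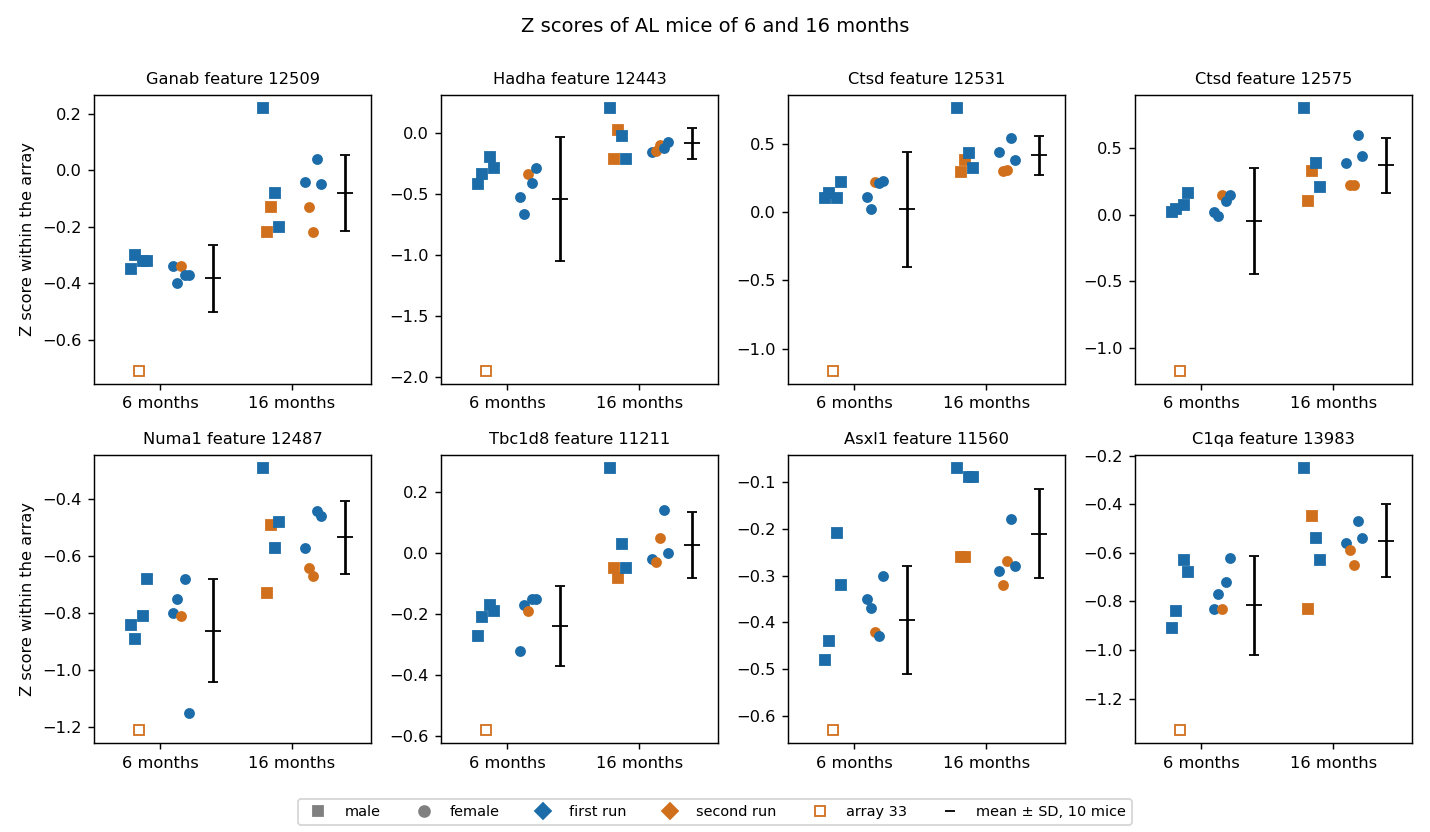
The y axis gives the Z score at C1qa and at the 7 features called in the run-adjusted fit, in AL mice of 6 and 16 months (x axis). Each point is 1 mouse, squares are males and circles females, colours give the run, the open square is array 33, and bars are mean ± SD of 10 mice. Ganab, Tbc1d8 and Ctsd feature 12531 show no overlap of the ages, and array 33 is the lowest point in every panel (-0.71 for Ganab, -1.95 for Hadha).

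Single arrays weighed on these values. At all 8 of these features array 33 was the lowest of the 20 arrays and array 9, AL male replicate 1 of 16 months, the highest, with 0.76 and 0.8 at the Ctsd features where the next mouse had 0.54 and 0.6. Without array 33 the differences were 0.262 for Ganab, 0.23 for Tbc1d8, 0.293 for Hadha, 0.266 and 0.293 for Ctsd, 0.287 for Numa1, 0.157 for Asxl1 and 0.208 for C1qa, of which Ganab, Tbc1d8 and Hadha passed. When array 9 was also left out of the run-adjusted fit, 6 of the 7 features still passed, and Asxl1 did not. Without arrays 9 and 33 and with no term for the run, 2 features passed, namely Ganab and Hadha. A term for the run with all arrays kept gave 9 calls, of which 8 were higher. Within the first run alone the differences were 0.328 for Ganab, 0.267 for Tbc1d8, 0.337 and 0.403 for Ctsd, 0.324 for Hadha, 0.357 for Numa1 and 0.196 for Asxl1. In the second run, array 34 was the only mouse of 6 months besides array 33, and its Ganab value of -0.34 and Tbc1d8 value of -0.19 lay below the 4 mice of 16 months (-0.22 to -0.13 and -0.08 to 0.05). For Ctsd its value of 0.22 at feature 12531 lay below the range of 0.29 to 0.38, and its value of 0.15 at feature 12575 lay within 0.1 to 0.33.

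The sequences upstream of the genes that rose are shown because cathepsin D belongs to the lysosomal genes. Many of these carry the E-box CACGTG that lysosomal transcription factors bind. The genes were chosen by their rise, and regulation through these sequences was not tested. For all 6 genes an entry was matched by symbol in the RefSeq promoters of GRCm38.p6, and the 250 bases before the start are printed for 4 of them, in lower case with CACGTG in capitals.
Ctsd, chr7:142387828-142388077, minus strand: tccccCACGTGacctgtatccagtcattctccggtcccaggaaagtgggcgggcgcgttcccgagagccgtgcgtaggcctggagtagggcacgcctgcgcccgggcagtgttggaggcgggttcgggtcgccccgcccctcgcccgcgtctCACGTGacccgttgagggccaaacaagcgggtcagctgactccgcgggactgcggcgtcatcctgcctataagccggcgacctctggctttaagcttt
Ganab, chr19:8897807-8898056, plus strand: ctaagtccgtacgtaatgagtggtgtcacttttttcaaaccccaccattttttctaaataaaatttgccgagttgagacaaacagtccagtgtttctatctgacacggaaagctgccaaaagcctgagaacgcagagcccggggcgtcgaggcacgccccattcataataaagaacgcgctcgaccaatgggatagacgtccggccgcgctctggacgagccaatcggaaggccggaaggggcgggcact
Hadha, chr5:30154981-30155230, minus strand: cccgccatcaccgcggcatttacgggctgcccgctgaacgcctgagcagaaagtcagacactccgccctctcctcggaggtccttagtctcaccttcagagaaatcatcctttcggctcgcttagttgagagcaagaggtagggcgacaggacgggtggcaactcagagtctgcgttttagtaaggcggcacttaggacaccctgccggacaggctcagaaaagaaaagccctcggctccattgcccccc
Tbc1d8, chr1:39478756-39479005, minus strand (1 of 2 listed starts): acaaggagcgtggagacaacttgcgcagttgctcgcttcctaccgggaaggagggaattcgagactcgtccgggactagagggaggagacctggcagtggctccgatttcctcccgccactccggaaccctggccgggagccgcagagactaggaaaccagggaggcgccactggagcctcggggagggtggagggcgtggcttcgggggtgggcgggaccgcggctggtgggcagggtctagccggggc
Ctsd held the E-box 2 times, beginning 245 and 98 bases before the start, and the promoters of Ganab, Hadha, Tbc1d8, Numa1 and Asxl1 held none in this window. Since CACGTG reads the same on both strands, 1 search covers them, and 6.02% of 32851 promoters of this length held it. The endoplasmic reticulum stress element (CCAAT, 9 bases of any kind, then CCACG), searched on both strands, was in none of the 6 genes and in 0.113% of all promoters. Ganab held its first part, CCAAT, 2 times on either strand, as did 33.8% of all promoters at least 1 time.

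Of the 7 features that rose, 5 lay within feature numbers 12443 to 12575, and Tbc1d8 (11211) and Asxl1 (11560) lay apart from them. The level of the features changed with their position in a repeat of 22 feature numbers, and 6 of the 7 features, all but Asxl1, as well as C1qa, lay at position 13 of this repeat. The 384 of 8448 features at position 13 had a median difference of 0.068 against 0.012 over all features, and 0.0113 against 0.00481 when run-adjusted. This median was not particular to position 13. Positions 7, 9 and 11 had 0.072, 0.07 and 0.08, and 0.01, 0.0198 and 0.0219 when run-adjusted, and held no called feature in either fit. Hadha, Numa1, Ganab and both Ctsd features fell within 7 consecutive features of that position, and the remaining ones there, Slc25a37 and Smchd1, had run-adjusted differences of 0.0728 and 0.0539 that did not pass. The next features outside, Vps26a and Niban1, had 0.0477 and 0.101. Centring each array on its positions left 0 calls with all arrays (931 features at an unadjusted p under 0.05), where the difference of Ganab was 0.222 (limma adjusted p = 0.316), and 6 calls when run-adjusted, all of them among the 7. The part of the position in the result was not tested further.

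**Figure D3:**
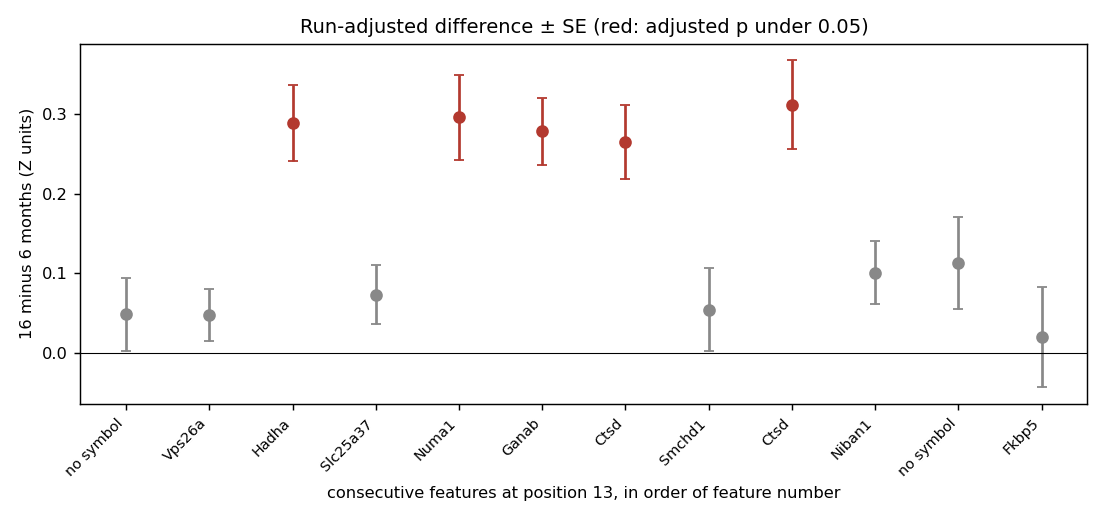
Run-adjusted difference, 16 minus 6 months, in Z units with its SE (y axis) at consecutive features of position 13 in order of feature number (x axis), red where the adjusted p was under 0.05. The 5 red features lie between 0.265 and 0.312 and the grey features among and beside them between 0.0196 and 0.113.

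Further positive differences did not pass the test. After the features above, the smallest p in the run-adjusted fit belonged to Atp5g2, a subunit of the ATP synthase (0.144, SE 0.0378, limma adjusted p = 0.303), Ephx1, the microsomal epoxide hydrolase (0.163), Nsmaf, an adaptor of sphingomyelinase activation (0.142), and Tomm22 of mitochondrial protein import (0.178). They were followed by the ubiquitin-conjugating enzyme Ube2b (0.145), Zfp593 (0.135) and the ribosomal protein Rps13 (0.0864), with limma adjusted p between 0.412 and 0.662 from Ephx1 to Rps13. With all arrays, the aldehyde dehydrogenase Aldh1b1 (0.164), Arap1 (0.123), the phenylalanyl-tRNA synthetase subunit Farsa (0.213) and a feature of Rpl31 (0.182) had the next smallest p, with limma adjusted p between 0.273 and 0.292. The 2 other features of Rpl31 had differences of -0.016 and 0.019 (-0.0612 and -0.042 when run-adjusted). Nsmaf, Aldh1b1 and Arap1 lay at position 13 as well.

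Negative differences were of similar size and did not pass either. In the run-adjusted fit they were led by Pde5a, the cGMP phosphodiesterase (-0.15, SE 0.0412, limma adjusted p = 0.445), Gm16523 (-0.26), the ubiquitin hydrolase Uchl3 (-0.142) and Ube2j2, which conjugates ubiquitin at the endoplasmic reticulum (-0.2). The other feature of Pde5a had 0.0911, the opposite sign. Next came Nktr (-0.172, its other feature -0.0584), Osbpl6 (-0.154), the SUMO ligase Pias1 (-0.195), the RNA demethylase Alkbh5 (-0.174), Stam of endosomal sorting (-0.18), Arhgap20 (-0.242) and Nav1 (-0.142), with limma adjusted p up to 0.739. Ssbp1, which binds single-stranded mitochondrial DNA, had -0.319 and -0.0134 at its 2 features (the latter 0.045 with all arrays). The delta-tubulin Tubd1 (-0.252), the pseudouridine synthase Pus7 (-0.161) and the retinoic acid receptor Rarb (-0.205) completed the 15. With all arrays, St6galnac3 (-0.24), Tspan6 (-0.205), Zfp275 (-0.17) and Platr26 (-0.211) had small p too (limma adjusted p between 0.273 and 0.283).

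The direction of differences followed the feature number. In the run-adjusted fit, 6.42% of the features in the first part of the numbers (8449 to 12672) were higher and 0.545% lower at an unadjusted p under 0.05, against 1.21% and 5.18% in the second part (12673 to 16896). In the last 3 of 24 blocks of 352 features (15841 to 16896) 12.7% were lower and 0.0947% higher. Pde5a, Uchl3, Ube2j2, Nktr, Osbpl6, Pias1, Alkbh5, Stam, Nav1, Tubd1 and Rarb lay in those blocks, and all 7 features that rose lay in the first part. Centring on blocks left 5 calls with all arrays and 6 when run-adjusted, and the cause of the trend was not tested.

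**Figure D4:**
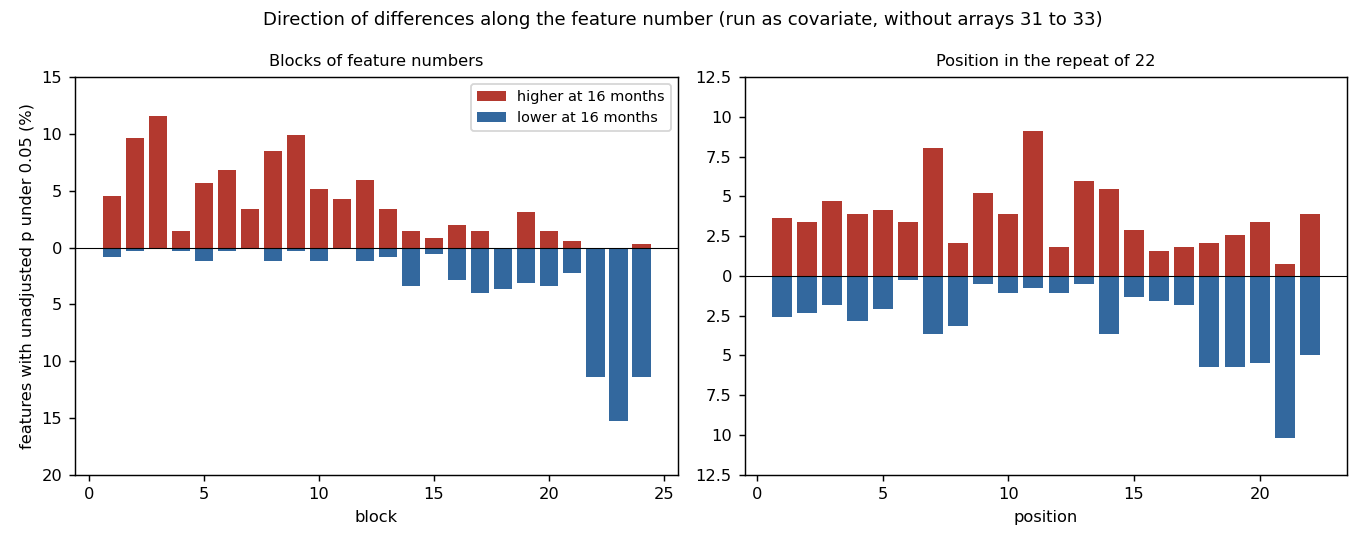
Percentage of features with an unadjusted p under 0.05 in the run-adjusted fit (y axis, higher at 16 months upwards, lower downwards) by block of 352 feature numbers (left) and by position in the repeat of 22 (right). Lower values gather in blocks 22 to 24 (11.4, 15.3 and 11.4%) and at position 21 (10.2%).

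Genes of the cytosolic ribosome and of oxidative phosphorylation were mostly higher at 16 months with all arrays and less so when run-adjusted. Of the 4209 genes with a single symbol, 60.4% had a positive difference (median 0.024), and 58% (median 0.00945) when run-adjusted. For the cytosolic ribosome 52 of 53 genes had a positive difference (median 0.105), and 47 of 53 (median 0.0379) when run-adjusted. Rps13 (0.0864) and a feature of Rpl7 (0.104, the other 3 features 0.0149 to 0.0473) had the smallest p, and none of the 53 passed. Without array 33 alone, the median of these genes was 0.0357. For oxidative phosphorylation 38 of 43 genes had a positive difference (median 0.1), and 31 of 43 (median 0.0263) when run-adjusted. Atp5g2 had 0.144, and Atp5g1 had -0.1 and 0.0247 at its 2 features. The median of this list was 0.0325 without array 33 alone, where that of all genes was 0.00575.

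Of mitochondrial fatty acid oxidation, Hadha was the 1 of 16 genes that passed when run-adjusted, and 10 of 16 had a positive difference (median 0.0218, 11 of 16 and 0.041 with all arrays). The thiolase Acaa2 came next with 0.1. For glycolysis and the TCA cycle the counts were 11 of 16 (median 0.041) and 10 of 16 (median 0.0113), and none passed. Me1 had 0.0842 and -0.032 at its 2 features (the latter 0.079 with all arrays) and Tpi1 0.0927. Either list had 68.8% positive genes with all arrays and 62.5% when run-adjusted, near the 60.4% and 58% of all genes.

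Of 16 lysosomal proteases and hydrolases, 13 had a positive difference (median 0.0406), against 10 of 16 (median 0.0645) with all arrays, and Ctsd was the 1 that passed. Cst3, the cathepsin inhibitor cystatin C, had 0.156 (limma adjusted p = 0.725). Of the list, which includes Ctsd and Cst3, 25% (4 of 16) had a positive difference at an unadjusted p under 0.05 at any feature, against 5.04% of all genes. This share was not particular to the list, being 20.8% for the cytosolic ribosome (11 of 53). It was 20% each for the microglia (2 of 10), antigen presentation (2 of 10) and neuron (1 of 5) lists, which rest on few genes. Of 16 lysosomal membrane and proton pump genes 11 had a positive difference (median 0.0244, 13 of 16 and 0.0475 with all arrays), with the tetraspanin Cd63 at 0.106 and the mannose 6-phosphate receptor M6pr at -0.096 and -0.0582, and none passed.

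Markers of microglia did not move as a group. Of 10 microglia and complement genes 6 had a positive run-adjusted difference (median 0.00496), against 8 of 10 (median 0.0695) with all arrays, C1qa and Cd63 having the smallest p. Genes of antigen presentation and the interferon response had 7 of 10 (median 0.0156), against 8 of 10 (median 0.068), with the interferon gamma receptor chain Ifngr2 at 0.0599 and Ifitm2 at 0.115. None of either list passed, the smallest limma adjusted p among the named genes being 0.159 for C1qa.

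Of 32 genes of glycoprotein folding and trimming, Ganab passed, 21 had a positive run-adjusted difference (median 0.0125, 23 and 0.023 with all arrays) and Ube2j2 had -0.2. Of 32 Rab GTPases and TBC-domain proteins, Tbc1d8 passed, 18 had a positive run-adjusted difference (median 0.0073, 13 and -0.02 with all arrays), and Rab11b of recycling endosomes had -0.0709 and -0.0862 at its 2 features.

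Genes of protein quality control and redox defence showed small differences, and none passed. Positive run-adjusted differences were found in 10 of 14 proteasome genes (median 0.0267, 9 and 0.0485 with all arrays), with Psmd10 at 0.089 and 0.00731 and Psmd11 at 0.0706. Of 14 chaperones 8 were positive (median 0.0226, 9 and 0.0465 with all arrays), with mitochondrial Hspa9 at 0.0694 and the chaperonin subunit Cct4 at -0.0683. Of 16 antioxidant genes 13 were positive (median 0.0223, 13 and 0.041 with all arrays), with superoxide dismutase Sod1 at 0.115 and Gstm1 at 0.0778, -0.00982 and -0.0053 (the last pair 0.02 and 0.026 with all arrays). Of 7 genes of cholesterol synthesis and transport 4 were positive (median 0.0308, 4 and 0.076 with all arrays), with the lysosomal cholesterol carrier Npc2 at 0.118 and -0.0312 (the latter 0.077 with all arrays) and the regulator Srebf1 at 0.0684.

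Lists of cell types were small and none of their genes passed. Of 4 myelin and oligodendrocyte genes 3 had a positive run-adjusted difference (median 0.0634, 3 and 0.124 with all arrays), with carbonic anhydrase Car2 at 0.108 and gelsolin Gsn at 0.0832. Of 9 astrocyte genes 5 were positive (median 0.0229, 7 and 0.085 with all arrays), with Cst3 at 0.156 and vimentin (Vim) at -0.0665. Of 5 neuronal genes 3 were positive (median 0.0161, 4 and 0.0365 with all arrays), with Uchl1 at 0.116 and the calcium buffer Calb1 between 0.00931 and 0.0592 at 4 features.

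Among 7 ion channels and transmitter receptors 5 were positive when run-adjusted (median 0.00883, 4 and 0.076 with all arrays), with Gabra3 at 0.112 and the potassium channel Kcnd2 at 0.0597. Of 5 skeletal muscle genes 2 were positive (median -0.0361, 1 and -0.058 with all arrays), with Mylpf at -0.113 and Tpm1 at -0.109 (0.005 with all arrays) and 0.0368. Of 9 blood genes 4 were positive (median -0.0226, 8 and 0.046 with all arrays), with Car1 at -0.0831 and Bpgm at 0.0749 and 0.0497. The blood median thus had opposite signs in the 2 fits.

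Of 30 genes of meninges and matrix 17 were positive when run-adjusted (median 0.00647, 23 and 0.036 with all arrays), with Aldh1a2 at 0.111 and the laminin chain Lamc1 at 0.0745 and 0.0496. Of 6 genes of endothelium and mural cells 2 were positive (median -0.0172, 4 and 0.0385 with all arrays), with the tight junction gene Tjp1 at 0.0932 and Pdgfrb at -0.0777. Of 6 genes of ependyma and choroid plexus 2 were positive (median -0.00751, 2 and -0.0185 with all arrays), with Vim at -0.0665 and Dnah1 at 0.03 (-0.027 with all arrays).

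In nuclear and signalling lists, Numa1 and Asxl1 were the genes that passed. Of 43 genes of the mitotic spindle and cell cycle 24 had a positive run-adjusted difference (median 0.00824, 26 and 0.03 with all arrays), and besides Numa1 the smallest p was that of Prc1 (-0.089, but 0.177 with all arrays). Of 49 chromatin genes 29 were positive (median 0.00686, 29 and 0.028 with all arrays), with Kdm5b at -0.216 and -0.031 beside Asxl1. Of 28 genes of DNA repair and telomeres 20 were positive (median 0.0316, 21 and 0.0585 with all arrays), with Rad23b at 0.104 and Brca1 at -0.544. With all arrays the Brca1 difference was -0.392, from means of -2.44 ± 0.53 and -2.83 ± 1.07 (SD, n = 10 each). Its medians were -2.345 and -2.32, and the lowest mouse of 16 months had -5.47. The Brca1 differences were 0.052 in males and -0.836 in females. Of 26 Wnt and Notch genes 14 were positive (median 0.00538, 17 and 0.0255 with all arrays), with the Notch antagonist Numb at 0.108 and the Notch ligand Jag1 at 0.117. Of 9 genes of the clock and glucocorticoid response 7 were positive (median 0.0331, 8 and 0.038 with all arrays), with Sgk1 at 0.109 and Plk2 at 0.124.

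**Figure D5:**
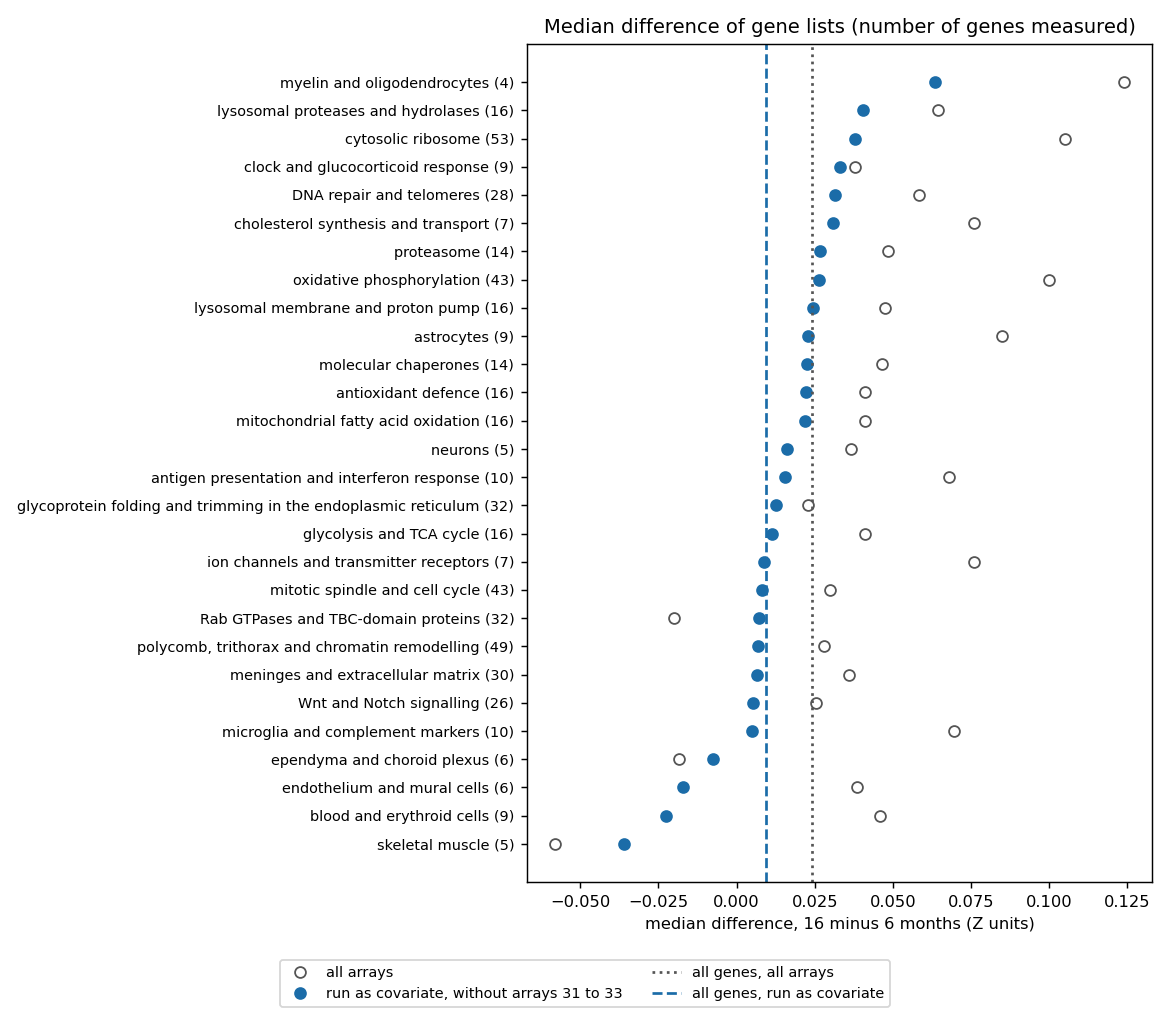
Median difference, 16 minus 6 months, in Z units (x axis) of each gene list (y axis, number of genes measured in parentheses), with open circles for all arrays and filled circles for the run-adjusted fit, and vertical lines for the median of all genes. The cytosolic ribosome moves from 0.105 to 0.0379 and oxidative phosphorylation from 0.1 to 0.0263 between the fits, against 0.024 and 0.00945 for all genes.

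The rise was compared between males and females by the interaction of sex and age. No feature passed in limma (261 at an unadjusted p under 0.05, or 3.09%), nor when run-adjusted (115, or 1.36%). Ganab rose by 0.318 in males and 0.284 in females, a difference of 0.034 (SE 0.101, limma adjusted p = 0.974). For Tbc1d8 the values were 0.31 and 0.224 (difference 0.086, SE 0.0957, limma adjusted p = 0.893). Larger gaps at Hadha (0.59 and 0.324) and Ctsd feature 12531 (0.556 and 0.236) became -0.0645 and 0.0591, males minus females, when run-adjusted. The smallest p belonged to the spindle protein Tacc3 (-0.554 in males and 0.07 in females), Trappc8 (0.29 and -0.106) and Zfp652 (-0.622 and 0.132), all with a limma adjusted p of 0.864.

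The same step was compared with that of CR mice, of which 8 were 6 months and 10 were 16 months old, by the interaction of diet and age. No feature passed in limma (237 at an unadjusted p under 0.05, or 2.81%), nor when run-adjusted (166, or 1.96%). Ganab went from -0.398 ± 0.14 to -0.19 ± 0.0959 in CR mice (SD, n = 8 and 10). With all arrays and the sexes weighted equally, this was a difference of 0.205. The CR arrays left out of the run-adjusted fit were mice of 6 months. Its CR and diet values therefore rest on fewer than 8 younger CR mice. In that fit the Ganab difference in CR mice was 0.173 (SE 0.0488), and the AL step exceeded it by 0.106 (SE 0.0634, limma adjusted p = 0.999). The run-adjusted differences in CR mice were 0.128 for Tbc1d8, 0.0972 and 0.133 for Ctsd features 12531 and 12575, 0.159 for Hadha, 0.145 for Numa1 feature 12487 and 0.0148 for Asxl1. With all arrays the differences in CR mice were 0.152, 0.267, 0.247, 0.252, 0.265 and 0.061 in that order. None of the gaps to the AL step passed. These features were chosen because they passed in AL mice, so nothing is read from the order of the steps. The smallest p of the diet difference belonged to Plk2, a polo-like kinase (0.187 in AL and -0.352 in CR mice), the kinesin Kif4 (0.183 and -0.638) and Txndc17 (-0.292 and 0.174), all with a limma adjusted p of 0.997. At Txndc17, array 33 had 0.59 and the next AL male of 6 months -0.46. Without array 33 its AL difference was -0.1785.

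The following step, from 16 to 24 months in AL mice, shares the 16 month arrays, so its values are only set beside those above. At 24 months the means were -0.051 ± 0.0891 for Ganab, 0.083 ± 0.116 for Tbc1d8, 0.448 ± 0.0961 and 0.412 ± 0.111 for Ctsd, -0.077 ± 0.0941 for Hadha, -0.578 ± 0.113 for Numa1 and -0.263 ± 0.0452 for Asxl1 (SD, n = 10). The differences from 16 months were 0.03, 0.056, 0.033, 0.042, 0.01, -0.044 and -0.052 in that order, and none passed in limma.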

How the data were processed

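Spinal cord RNA (total RNA, reverse transcribed with radioactive dCTP) was hybridized to nylon filters of cDNA clones (NIA mouse set, filter B), 1 filter per mouse. The deposited values are a score to 2 decimals, a Z score made by the authors from the scanned intensities of 1 array at a time. Log base and background correction are not given in the sources used here, so differences are in Z units and not folds. There are no counts, and precision is limited by the number of arrays.

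Group means of all 65 arrays (14 groups of age, diet and sex) were fitted with limma 3.58.1 in R 4.3.3, and the sexes were weighted equally. Features with a Benjamini-Hochberg adjusted p under 0.05 over 8448 features were called. The shared fit had 51 residual degrees of freedom, and the run-adjusted fit 47. The fit was tested on simulated data. Gene symbols came from the platform annotation, checked against RefSeq (GRCm38.p6): 4875 features had 1 symbol, 224 several and 3349 none, and 4861 of the first matched by gene ID. A feature stands for its printed clone. Lists were averaged per gene, and 28 of 30 had at least 3 genes (lymphocyte and Schwann cell lists did not). Named genes were every called feature, the 15 positive and 15 negative differences of smallest p in the run-adjusted fit, the next 8 of smallest p with all arrays, 2 genes per list with the smallest run-adjusted p, and 3 genes for each of the sex and diet differences, with all their features. The members and the lists were chosen with earlier results of these data known. Alternatives covered batch, arrays left out, scaling, feature position, filters and the study's selection rule. The 24 month AL male whose description differs from its title was kept.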

Additional observations from a re-analysis of the deposited data

Results flagged for a closer look

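The named features were searched, within each group of 5 AL mice of one age and sex, for a single mouse whose gap to its nearest neighbour exceeded 0.71 of the range of the group (Dixon's 95% value). Of 444 groups (111 features in 4 groups) 68 had such a mouse, and chance gives about 1 in 20 groups. Array 33 was the mouse in 51 of them, more than any other array. It lay below the other 6 month males in 39 cases and above them in 12.

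The low Z scores of array 33 were -0.71 for Ganab, -1.95 for Hadha, -1.16 for Ctsd feature 12531, -1.17 for Ctsd feature 12575, -0.58 for Tbc1d8, -0.68 for Zfp593, -0.22 for Rps13 and -0.9 for Cst3. It likewise had -0.27 for Rpl7 feature 9336, -0.28 for Arap1, -1.43 for Stam, -0.38 for Numb, -0.82 for Aldh1a2, -0.59 for Rad23b, -0.09 for Rpl31 feature 10592 and -1.14 for Sod1. It likewise had -0.68 for Gstm1 feature 11826, -2.76 for Prc1, -3.9 for Brca1, 0.96 for Ifitm2, -0.44 for Hspa9, -0.95 for Tpm1 feature 16596, 0.65 for Lamc1 feature 8807 and -2.25 for Car2. It likewise had -0.99 for Tpi1, 0.85 for Psmd10 feature 9958, -0.83 for Acaa2, -0.97 for Car1, 0.76 for Bpgm feature 11542, -0.76 for Gsn, -0.64 for Psmd11 and -0.7 for Bpgm feature 12434. It likewise had 0.96 for Rpl31 feature 10262, -0.28 for Atp5g1 feature 12812, -0.55 for Rpl7 feature 14447, 0.18 for Numa1 feature 15748, -0.38 for Ssbp1 feature 9710, -0.14 for Trappc8 and 1.17 for Gstm1 feature 8680. Its high Z scores were 1.79 for Pias1, 1.76 for Nav1, -1.15 for Ssbp1 feature 13529, 0.56 for M6pr feature 15489, 1.6 for Atp5g1 feature 16578, 0.59 for Txndc17, 2.27 for Rab11b feature 13017 and -1.1 for Sgk1. It likewise had 2.49 for Rab11b feature 15936, 0.86 for Pdgfrb, -0.39 for Nktr feature 8577 and 0.97 for Kdm5b feature 13316.

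The remaining 17 cases came from 11 arrays. In the 16 month females, replicate 1 had -1.67 for Tubd1. In the 16 month females, replicate 2 had 0.55 for Numb, 0.94 for Lamc1 feature 8807, -1.08 for Npc2 feature 9773 and -0.51 for Calb1 feature 12565. In the 16 month males, replicate 1 had -3.74 for Brca1. In the 16 month males, replicate 2 had -0.51 for Atp5g2 and 0.27 for Tpm1 feature 16596. In the 16 month males, replicate 4 had -2.93 for Kif4. In the 16 month males, replicate 5 had -0.65 for M6pr feature 15489. In the 6 month females, replicate 1 had -0.32 for Tbc1d8 and -1.37 for Platr26. In the 6 month females, replicate 2 had 0.91 for Lamc1 feature 9951. In the 6 month females, replicate 3 had -0.16 for Prc1 and 1.37 for Ifitm2. In the 6 month females, replicate 5 had -1.15 for Numa1 feature 12487. In the 6 month males, replicate 5 had -0.85 for Me1 feature 13985. Why array 33 differs was not tested.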

How the results depend on the processing

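With all arrays 2 features passed. The count was 3 without array 33, 6 without arrays 31 to 33, 9 (8 higher, 1 lower) with the run as a covariate, 7 with both, 5 in the first run, 7 with 5 blocks of successive array numbers (a grouping that the labels do not name), 4 with the sexes pooled, 7 (6 higher, 1 lower) with array weights, 2 with quantile normalization, 3 with median and MAD scaling, 5 with block centring, 6 with block centring and 6 with position centring in the run-adjusted fit, and 6 run-adjusted without array 9. In the second run, where array 33 is 1 of 2 younger mice, 4630 features passed (2493 higher, 2137 lower), and 4364 for the sex and 2204 for the diet difference. The count was 0 with only the 20 arrays (537 unadjusted), with position centring (931) and with features of mean Z above 0 (647), a filter that removed both called features. The study's selection (mean Z above 0, Z ratio of at least 1.5 and unadjusted p) gave 79 features, 9 higher and 70 lower, and 78 with its ANOVA, while the methods' 2-sample test after Benjamini-Hochberg gave 0 (582 unadjusted). Block centring, the settings without array 9, the adjusted 2-sample test and the sex and diet counts under further settings were chosen after seeing the data. Leaving out each of the 20 mice gave 2 to 11 calls, with 4, 8 and 11 without AL 6 month males replicate 2, 4 and 5 and 6 without AL 16 month male replicate 2, and 0 for the sex and diet differences. Ganab (0.262 to 0.318) and Tbc1d8 (0.23 to 0.281) passed in all 20 of these. Neither passed with only the 20 arrays (limma adjusted p = 0.649) or with position centring (0.222 and 0.187, limma adjusted p = 0.316). Tbc1d8 did not pass in the first run (limma adjusted p = 0.062) or without arrays 9 and 33 (0.198, limma adjusted p = 0.0559). The latter setting gave 2 calls, Ganab and Hadha. Over features and settings, 3975 of 4274 values kept direction and side of the threshold, 142 passed newly, 6 no longer passed and 151 changed sign. Of these features only Ganab and Tbc1d8 passed with all arrays, so no other feature could cease to pass. The 142 include values of the second run alone, so the tally does not measure how stable the calls are. The labels give the mice no replicate numbers, so mice were not paired by number, and the blocks of successive array numbers, each with 1 AL mouse of each age and sex, were the blocked fit that was run. In block 2 the mice of 6 months (arrays 19 and 20) were in the first run and those of 16 months (arrays 23 and 24) in the second. Age and run cannot be told apart within that block. The depth behind a Z score is unknown. The cause of these changes was not tested.

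The sign turned under other settings at Bpgm feature 11542 from 0.08 to -0.00625, Calb1 feature 11883 from 0.06 to -0.0075, Calb1 feature 12117 from 0.041 to -0.0172, -0.111, -0.0547, -0.018, -0.00297, -0.0171 and -0.0105, Calb1 feature 15295 from 0.003 to -0.006, -0.0175, -0.0117, -0.00938 and -0.014, Car1 feature 16602 from -0.057 to 0.188, Dnah1 feature 13858 from -0.027 to 0.0248, 0.0247, 0.03, 0.0158, 0.00161, 0.039, 0.0363, 0.043, 0.0338 and 0.0411. It also turned at Gstm1 feature 11738 from 0.02 to -0.0045, -0.00982, -0.0371, -0.0215, -0.0135, -0.0157, -0.0115, -0.0302, -0.007 and -0.0136, Gstm1 feature 8680 from 0.026 to -0.023, -0.0053, -0.00917, -0.0329, -0.0075, -0.0112, -0.0235, -0.0257 and -0.014, Ifitm2 feature 13670 from 0.035 to -0.0668, -0.0711, -0.0225 and -0.0883, Jag1 feature 15158 from 0.087 to -0.045, Kif4 feature 16455 from 0.183 to -0.305, Lamc1 feature 9951 from 0.037 to -0.0205. It also turned at M6pr feature 16353 from -0.033 to 0.173, Me1 feature 13271 from 0.079 to -0.032, -0.0462, -0.049, -0.0259 and -0.0175, Nktr feature 8577 from -0.069 to 0.0155, 0.00761 and 0.0175, Npc2 feature 13339 from 0.077 to -0.0312, -0.0204, -0.0335, -0.025 and -0.0402, Npc2 feature 9773 from 0.157 to -0.0275, Numa1 feature 15748 from -0.042 to 0.00644 and 0.102. It also turned at Osbpl6 feature 16479 from -0.08 to 0.065, Pdgfrb feature 15369 from -0.06 to 0.0283, 0.0282, 0.023 and 0.0528, Prc1 feature 14339 from 0.177 to -0.0602, -0.089, -0.107, -0.0748, -0.101, -0.0871, -0.06 and -0.0941, Psmd10 feature 16197 from 0.022 to -0.00968, Psmd10 feature 9958 from 0.042 to -0.0292, -0.0193 and -0.0525, Rpl31 feature 10218 from -0.016 to 0.185. It also turned at Rpl31 feature 10262 from 0.019 to -0.0515, -0.042, -0.0375, -0.0696, -0.0065, -0.0584, -0.0736, -0.0647 and -0.0551, Rpl7 feature 14403 from 0.041 to -0.0035, Rpl7 feature 14447 from 0.087 to -0.0025, Sgk1 feature 11930 from 0.062 to -0.0425, Ssbp1 feature 9710 from 0.045 to -0.0188, -0.0134, -0.00667, -0.0251, -0.0125, -0.0191, -0.0273 and -0.00125, Stam feature 16366 from -0.224 to 0.108. It also turned at Tpm1 feature 16596 from 0.005 to -0.127, -0.109, -0.103, -0.118, -0.0041, -0.00807, -0.0525, -0.115, -0.0679, -0.126 and -0.105, Trappc8 feature 13519 from 0.092 to -0.00458 and -0.0237. Where leaving out 1 mouse other than array 33 turned the sign, the differences ran from -0.011 to 0.0865 for Calb1 feature 12117, -0.0165 to 0.0287 for Calb1 feature 15295, -0.0025 to 0.04 for Gstm1 feature 11738, -0.0278 to 0.0922 for Ifitm2 feature 13670, -0.00325 to 0.0848 for Psmd10 feature 9958, -0.0405 to 0.00925 for Rpl31 feature 10218, -0.00425 to 0.0485 for Rpl31 feature 10262 and -0.0075 to 0.0585 for Tpm1 feature 16596.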
